A study of Mus musculus with 10 samples.

Results

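The early growth response factors EGR1, EGR2 and EGR3 and the corepressors NAB1 and NAB2 were examined in skeletal muscle RNA of mice without desmin, the muscle intermediate filament protein. The group was taken by gene name, as the rows of Egr1, Egr2, Egr3, Nab1 and Nab2 in a table of 54232 genes, and all 5 genes were found. These genes were chosen by their differences between the 2 genotypes in the same table, so their levels and differences are given as a description and carry no test. Of the 14289 genes with a mean above the limit of log2(10) over the 10 mice, 5 were members. Egr3 reached this limit only through the knock-out mice, since its wild-type mean of 3.30 lay just under the limit of 3.32, and the other 4 members lay above it in both genotypes. Egr4, the fourth gene of the factor family, had a value of -2.08 in both genotypes and was not tested.

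EGR proteins are zinc-finger transcription factors of the immediate-early class, which means that their genes are switched on within minutes of a stimulus without new protein synthesis. Signals through the kinase ERK reach these genes by way of serum response factor (SRF) with its partners of the ELK family, and signals through cyclic AMP or calcium by way of CREB. NAB1 and NAB2 bind EGR proteins at a dedicated repression domain and turn activation into repression, in part by recruiting the chromatin remodeller CHD4 of the NuRD complex, and Nab2 is itself induced by EGR factors, which closes a negative feedback loop. In muscle and its nerves, EGR2 is known for driving myelination in Schwann cells, EGR3 for the formation of muscle spindles, the stretch sensors of muscle, and EGR1 for the response to contraction, stretch and injury and for tendon matrix genes.

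RNA came from the gastrocnemius, a calf muscle that a figure legend of the study names together with the plantaris, of 5 mice with the genotype Des -/- and 5 mice with the genotype Des wt/wt, at 3 months of age. Both genotypes carry the strain label B6J.129Sv-Destm1Cba/Cscl, and the wild-type mice were littermates. The knock-out is constitutive, so the Des allele was disrupted in every cell type and from development on. According to the methods the RNA of the muscles was pooled, yet every mouse has its own column, and these columns served as the replicates. Levels are given as regularized log (rlog) values, a log2 measure of expression that corrects for library size and pulls the values of weakly expressed genes towards their average. A difference of 1 is therefore a factor of 2 on the rlog scale and understates the difference in counts, most of all for Egr2 and Egr3. Without counts, the depth of the libraries is unknown and no counting error can be given. In bulk muscle, fewer cells of a type and less RNA per cell cannot be told apart.

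Des itself had a mean of 11.84 ± 0.06 in the knock-out and of 16.58 ± 0.67 in the wild-type group (SD, n = 5 each), with no overlap. Over all tested genes, 1100 (7.7%) were higher and 856 (5.99%) lower in knock-out muscle at a limma adjusted p under 0.05, together 13.7%, and in 7.45% all knock-out values lay above all wild-type values. Wild-type mouse 3 stood apart, with a mean correlation to its genotype of 0.982 against 0.989 to 0.997 for the other mice and 46.7% of its summed level in the 20 most abundant genes against 35.8% to 39.5%. All 14 markers of skeletal muscle fibres were detected in both genotypes, with Acta1, the skeletal actin gene, at 19.88 ± 0.11 and 20.29 ± 0.51 (SD, n = 5 each).

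Sequence around the start sites is shown for the members whose promoters the RefSeq windows on GRCm38.p6 hold, because the known inputs of these genes act through short sites near the start. Windows run from 250 bases before to 50 bases after the start, and both strands were searched for the CArG box, which SRF binds, for the full CRE (TGACGTCA) and its 5-base core (TGACG), which CREB binds, and for an EGR site (GCGNGGGCG). Every full CRE also holds the core. Of the 5 members, Egr2, Nab1 and Nab2 were matched. The stretch of 120 bases before the Egr2 start shared with GENCODE, on the plus strand at chr10:67537749-67537868, is shown with the CArG box and both CRE cores in capitals. It lies in an intron of longer annotated Egr2 transcripts and in no annotated exon.
Egr2: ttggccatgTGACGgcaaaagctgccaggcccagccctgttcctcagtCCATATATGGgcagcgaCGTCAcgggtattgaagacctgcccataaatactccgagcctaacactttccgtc
The CArG box shown began 72 bases before this start. A different CArG box, at chr10:67537494-67537503, began 72 bases before another Egr2 start. No full CRE or EGR site was found in any Egr2 window. Of 27025 genes with windows, 1.81% held a CArG box, 2.03% a full CRE and 23.05% a CRE core.

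The Nab1 window on the minus strand of chr1 held 1 CRE core and 3 EGR sites, and the EGR sites are shown in capitals within 29 bases each, at chr1:52500571-52500599, chr1:52500539-52500567 and chr1:52500468-52500496, all within the annotated first exon of a Nab1 transcript, in its 5′ untranslated region.
Nab1 site 1: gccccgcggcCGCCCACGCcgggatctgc
Nab1 site 2: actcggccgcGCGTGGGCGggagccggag
Nab1 site 3: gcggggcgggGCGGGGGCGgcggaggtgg
At least 1 EGR site was found in 6.27% of 27025 genes. The 190 bases between the exons of Nab2 and those of the neighbouring gene Nemp1, on the minus strand at chr10:127666711-127666900 and in an intron of a longer annotated Nab2 transcript, are shown because Nab2 had the widest gap between the genotypes, and the whole Nab2 window held none of these motifs.
Nab2: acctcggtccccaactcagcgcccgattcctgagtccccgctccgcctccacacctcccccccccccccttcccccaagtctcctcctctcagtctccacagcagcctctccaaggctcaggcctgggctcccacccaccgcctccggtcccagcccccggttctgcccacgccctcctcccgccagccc
These matches describe the letters in the windows and do not show that a factor was bound. Only exact matches within the windows were searched for, so sites with other letters or at other starts were not covered.

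Egr1 (ENSMUSG00000038418, chromosome 18, 34859823 to 34864984, plus strand) is the most widely expressed factor of the family and the usual reporter of ERK signalling. Its rlog values were 9.83, 10.53, 10.37, 9.84 and 10.14 in knock-out mice 1 to 5. In wild-type mice 1 to 5 they were 10.15, 9.05, 7.21, 7.41 and 7.49. The knock-out mice were all high and close together, whereas wild-type mouse 1 lay within the knock-out range, wild-type mouse 2 lay in between and the other 3 wild-type mice were low, so the genotypes overlapped. The means were 10.14 ± 0.31 in knock-out and 8.26 ± 1.28 in wild-type muscle (SD, n = 5 each), a difference of 1.88 (SE 0.46) or 3.69-fold on the rlog scale. Without wild-type mouse 1 the difference was 2.35 (SE 0.31), and without wild-type mouse 3 it was 1.62 (SE 0.45). With weights estimated for each mouse the difference was 0.98 (SE 0.33). Wild-type mice 1 to 5 had weights of 1.77, 2.19, 0.10, 0.27 and 0.79, so the 3 low wild-type mice counted least.

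Egr2 (ENSMUSG00000037868, chromosome 10, 67535475 to 67542188, plus strand), also called Krox20, had values of 5.55, 5.53, 6.06, 5.41 and 5.50 in knock-out mice 1 to 5. The wild-type values were 4.89, 4.64, 4.46, 4.29 and 4.66. Every knock-out mouse lay above every wild-type mouse, with 0.52 between the nearest values, and knock-out mouse 3 stood above the other knock-out mice. Egr2 averaged 5.61 ± 0.26 and 4.59 ± 0.23 (SD, n = 5 each), a difference of 1.02 (SE 0.15) or 2.03-fold.

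Egr3 (ENSMUSG00000033730, chromosome 14, 70077203 to 70082614, plus strand) had the lowest level per length of the members. Knock-out mice 1 to 5 had 4.46, 3.91, 4.15, 4.07 and 4.30. Wild-type mice 1 to 5 had 3.48, 3.33, 3.20, 3.21 and 3.30. The genotypes did not overlap and lay 0.43 apart at the nearest values, with the wild-type mice pressed together near the limit of expression. The means were 4.18 ± 0.21 in knock-out and 3.30 ± 0.12 in wild-type muscle (SD, n = 5 each), which differed by 0.87 (SE 0.12) or 1.83-fold.

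**Figure D1:**
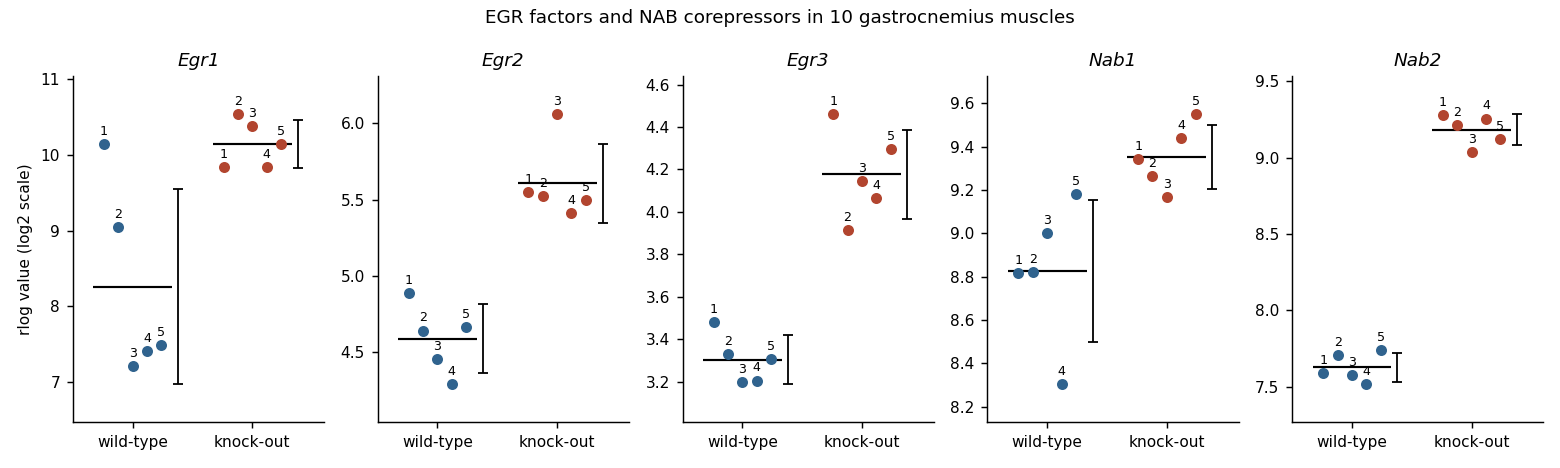
Rlog values (log2 scale, a separate scale for each gene) of the 5 members in 5 wild-type (blue) and 5 desmin knock-out (red) mice, numbered as in the labels. Horizontal lines are means and vertical bars are SDs over 5 mice. Egr2, Egr3 and Nab2 show no overlap of the genotypes, whereas wild-type mouse 1 lies among the knock-out mice for Egr1 and wild-type mouse 5 reaches the lowest knock-out mouse for Nab1.

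Of the corepressors, Nab2 (ENSMUSG00000025402, chromosome 10, 127660918 to 127668568, minus strand) differed by more than Nab1. Nab2 values were 9.28, 9.22, 9.04, 9.26 and 9.12 in knock-out mice 1 to 5 and 7.59, 7.71, 7.58, 7.52 and 7.74 in wild-type mice 1 to 5. Both genotypes formed tight groups, which lay 1.30 apart at the nearest values. Nab2 averaged 9.18 ± 0.10 and 7.63 ± 0.09 (SD, n = 5 each), a difference of 1.56 (SE 0.092) or 2.94-fold, and over all alternatives the difference stayed between 1.51 and 1.59.

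Nab1 (ENSMUSG00000002881, chromosome 1, 52457294 to 52500679, minus strand) encodes the second corepressor of the family and had values of 9.34, 9.27, 9.17, 9.44 and 9.55 in knock-out mice 1 to 5. The wild-type values were 8.82, 8.82, 9.00, 8.30 and 9.18. Of the knock-out mice, 4 lay above all wild-type mice, and wild-type mouse 5 lay just above knock-out mouse 3. The means were 9.35 ± 0.15 and 8.83 ± 0.33 (SD, n = 5 each), a difference of 0.53 (SE 0.15) or 1.44-fold, and without wild-type mouse 4, the lowest, it was 0.40. Nab1 lies 22.9 Mb from Des on the same chromosome. Whether DNA of the donor strain of the Des allele still reaches this far was not tested.

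All 5 members passed the adjusted p limit as higher, against 7.7% of all tested genes, and 3 of 5 had all knock-out values above all wild-type values, against 7.45%. Because the members were chosen for this difference, nothing follows from these counts. Leaving out knock-out mouse 1, 2, 4 or 5 or wild-type mouse 2 left 4 members past the limit, and the member lost was Nab1 each time. Ranked by the size of the rise among tested genes, Egr1 stood at 29, Nab2 at 71, Egr2 at 224, Egr3 at 321 and Nab1 at 850.

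Levels of different genes can be set side by side per length, as 2 to the power of the rlog value per kb of exon. On this linear scale Egr1 had 257 (203.6 to 330.4 over 5 mice) in knock-out muscle, Nab2 198 (178.8 to 211.7) and Nab1 160 (140.1 to 182.7). The range of Nab1 met that of Nab2 and the range of Nab2 met that of Egr1, whereas Nab1 lay under every Egr1 value. Egr2 followed with 14.6 (12.5 to 19.6) and Egr3 with 4.14 (3.42 to 5.00), both clear of their neighbours. In wild-type muscle the order of the abundant members changed to Nab1 with 113, Egr1 with 96.4 and Nab2 with 67.3, where the Egr1 range of 33.1 to 252.7 covered both others. The wild-type ranges of Nab1 (77.1 to 141.6) and Nab2 (62.3 to 72.9) did not meet, and Egr2 and Egr3 stood at 7.16 and 2.25.

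The spread within a genotype was widest for Egr1 among the members. That immediate-early genes differ among the wild-type mice was known when the members were chosen, so the spread is given as a description too. The 5 wild-type mice spanned 2.93 for Egr1, which is wider than in 99.9% of tested genes. The wild-type range was 0.60 for Egr2 and 0.28 for Egr3, wider than in 48.7% and 9.36% of tested genes, and 0.88 for Nab1 and 0.23 for Nab2, wider than in 77.1% and 4.79%. Among knock-out mice the Egr1 range was 0.70, that of Egr2 0.65 and that of Egr3 0.55, each wider than in at least 84.3% of tested genes, whereas Nab1 spanned 0.38 and Nab2 0.24. Wild-type mouse 1 was the highest wild-type mouse for all 3 EGR factors, and wild-type mouse 5 was the highest for both NAB genes. Wild-type mouse 4 was the lowest for Egr2, Nab1 and Nab2, and wild-type mouse 3 for Egr1 and Egr3.

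The reads of Nab2 could be shared with genes on the opposite strand, because the strand setting of the counting was not given in the sources used here although the library kit keeps the strand. In GENCODE, the antisense gene Gm16229 shares 1050 bases (35.7%) of the 2941 exon bases of Nab2, Nemp1 shares 151 bases (5.13%) and Stat6 shares 40 bases (1.36%). Gm16229 had a value far under the expression limit, -0.75 in knock-out and -0.77 in wild-type muscle. Stat6, which encodes a cytokine-driven transcription factor, averaged 10.04 ± 0.09 and 9.91 ± 0.12 (SD, n = 5 each), a difference of 0.13 with a limma adjusted p of 0.349. Nemp1, which encodes a protein of the inner nuclear membrane and starts head to head with Nab2, averaged 7.81 ± 0.13 and 7.38 ± 0.18 (SD, n = 5 each) and was higher by 0.43 (SE 0.11, limma adjusted p = 0.0223), with all 5 knock-out values above all wild-type values; this call was lost without knock-out mouse 2, 3 or 4 (adjusted p up to 0.0663). The part of shared reads in the Nab2 values was not tested, and no annotated gene overlapped another member.

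**Figure D2:**
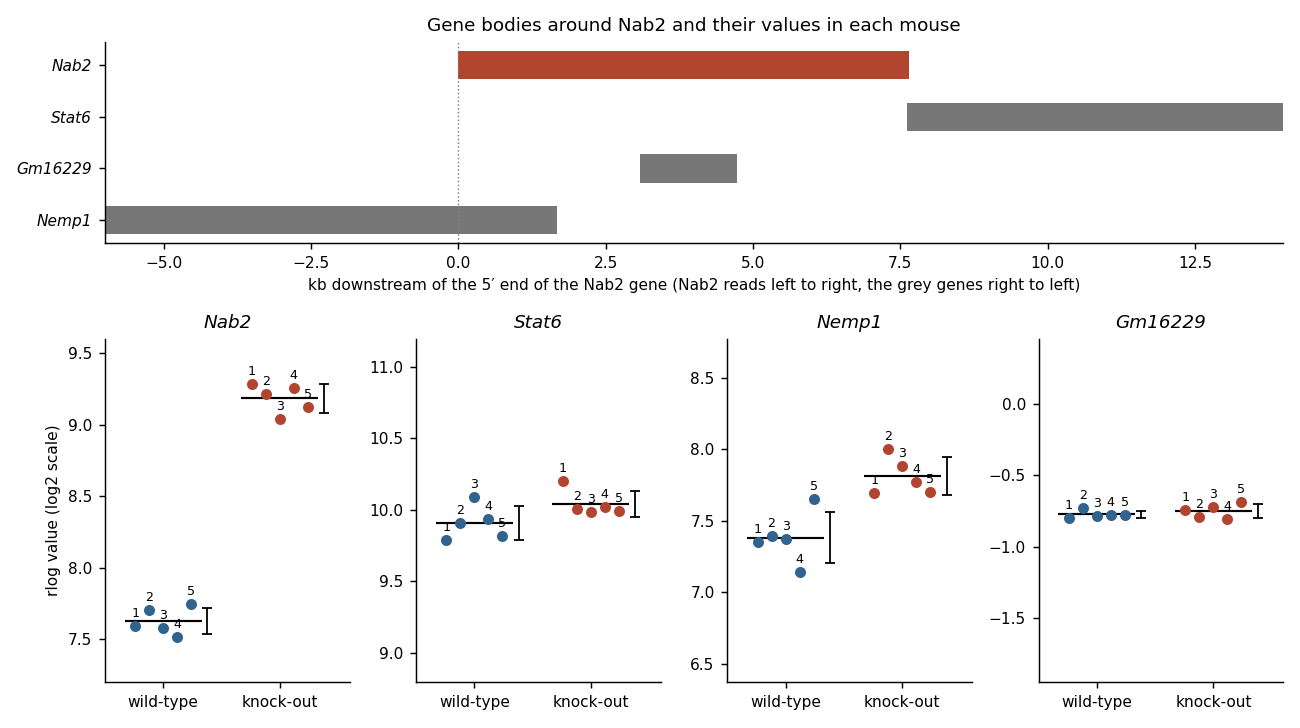
Top, gene bodies of Nab2 (red) and of the genes on the opposite strand that share exon bases with it, in kb from the 5′ end of the Nab2 gene, with Stat6 and Nemp1 running beyond the plot. Bottom, rlog values (log2 scale, each panel spanning 2.4) in wild-type (blue) and knock-out (red) mice, with means and SDs over 5 mice. The 2 groups of Nab2 values lie far apart, those of Nemp1 lie next to each other without overlap, and those of Stat6 and Gm16229 overlap.

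A list of 38 other immediate-early genes was set beside the members to see whether the class moved as a whole. Of these, 5 were higher and 0 lower in knock-out muscle (limma, adjusted p under 0.05). At an unadjusted p under 0.05 (limma) the counts were 10 and 0. The share of all tested genes at an unadjusted p is not given here, so the unadjusted counts of this and the following lists have no background. The median difference was 0.28 against -0.0029 over all tested genes, and 32 of 38 had a positive difference, against 7080 of 14289 tested genes. Without wild-type mouse 1, 11 of the 38 were called, these 5 together with Fosb, Fosl1, Klf10, Ccn1, Rgs2 and Sik1. The 5 were Ccn2, a matricellular growth factor (1.01, SE 0.21, adjusted p = 0.00497), Dusp1, a phosphatase that switches off stress kinases (0.50, adjusted p = 0.00587), Ier2 (0.62, adjusted p = 0.0108) and the AP-1 subunits Junb (0.61, adjusted p = 0.0134) and Jund (0.63, adjusted p = 0.0147). Fos, the immediate-early gene most often measured beside Egr1, had 9.37 ± 0.45 in knock-out and 8.72 ± 1.03 in wild-type muscle (SD, n = 5 each), and its difference of 0.65 (SE 0.39) did not pass (adjusted p = 0.309). The orphan receptor gene Nr4a1 differed by -0.13 (adjusted p = 0.655).

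Egr1 shared its wide wild-type spread with this list. A wild-type range over 1 was found in 26 of the 38 genes against 15.3% of all tested genes, and a knock-out range over 1 in 4 against 1.40%. Wild-type mouse 1 was the highest wild-type mouse in 28 of 38 genes and lay above all knock-out mice in 22. The mean of the 38 genes was 9.21, 8.79, 8.02, 8.28 and 8.28 in wild-type mice 1 to 5 and 8.80, 9.03, 8.73, 8.81 and 8.72 in knock-out mice 1 to 5. On this mean, wild-type mouse 1 was above and wild-type mice 3 to 5 were below every knock-out mouse, whereas for Egr1 wild-type mouse 1 lay within the knock-out range and the other wild-type mice below it. For Nab2, wild-type mouse 1 had 7.59, the middle of the 5 wild-type values.

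**Figure D3:**
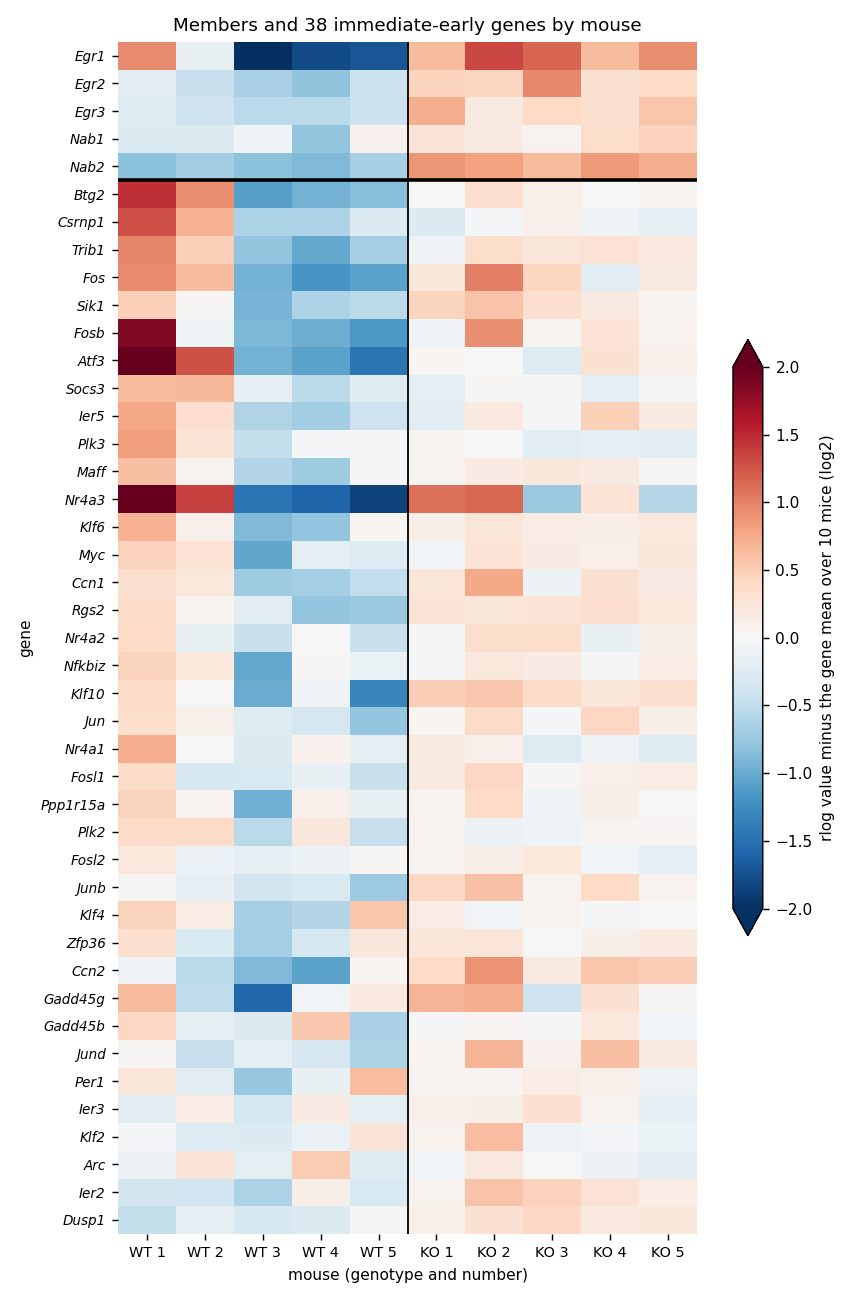
Rlog value minus the mean of each gene over 10 mice (log2, red above and blue below the mean, colours end at 2 and -2) for the 5 members above the line and 38 immediate-early genes below it, ordered by their correlation with Egr1. Wild-type mouse 1 is red for most immediate-early genes and for Egr1 and blue for Nab2, and Nab2 splits by genotype.

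The likeness of genes to each member was measured as the correlation over 10 mice after the mean of each genotype was removed, so that the difference between genotypes did not enter. It is given as a description, since the highest of 14288 genes were picked and the mice share library preparation and scaling. The genes most like Egr1 were Otud1 (Pearson r = 0.980, Spearman rho = 0.964), the antiproliferative gene Btg2 (r = 0.979, rho = 0.988), Csrnp1 (r = 0.975, rho = 0.976), Midn (r = 0.967, rho = 0.939) and Trib1 (r = 0.965, rho = 0.952). Without wild-type mice 3 and 4, the mice farthest from the median of Egr1, these r were between 0.960 and 0.992. Btg2, Csrnp1 and Trib1 are on the list of immediate-early genes. None of the 5 except Midn (0.58, limma adjusted p = 0.0422) was called different between the genotypes, and the call of Midn was lost when any of 8 mice was left out, all but wild-type mice 1 and 2 (adjusted p up to 0.103).

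The 38 immediate-early genes had a median r of 0.75 with Egr1, and 16 of them were over 0.8, against a median of -0.019 and 1.81% over 0.8 for all tested genes. Their median r was 0.36 with Egr2, 0.23 with Egr3, -0.08 with Nab1 and 0.10 with Nab2, and 0 of 38 were over 0.8 for any of these. Without the 2 mice farthest from the median of each member, the medians were 0.81 with Egr1, 0.70 with Egr2, 0.48 with Egr3, -0.50 with Nab1 and 0.06 with Nab2, so the medians for Egr2, Egr3 and Nab1 depended on those mice. The number over 0.8 was then 19 for Egr1, 11 for Egr2, 1 for Egr3 and 0 for Nab1 and Nab2. Among the members, Egr1 and Egr2 had an r of 0.60 (rho = 0.58), which was 0.39 without wild-type mice 3 and 4, the farthest for Egr1, and 0.81 without knock-out mouse 3 and wild-type mouse 4, the farthest for Egr2. Nab1 and Nab2 had an r of 0.54 (rho = 0.44), which was 0.59 without wild-type mouse 4 and knock-out mouse 5, the farthest for Nab1, and 0.40 without knock-out mouse 1 and wild-type mouse 4, the farthest for Nab2. Egr1 and Nab2 had an r of -0.03 (rho = 0.02), which was -0.59 without the mice farthest for Egr1 and -0.19 without those farthest for Nab2. For Egr1 and Nab1 the r of -0.07 became -0.73 without the mice farthest for Egr1 and -0.77 without those farthest for Nab1. Egr3 had an r of 0.30 with Egr1 (0.07 and 0.69 without such mice) and of 0.30 with Egr2 (0.52 and 0.79). The remaining pairs had r between -0.21 and 0.21, and between -0.59 and 0.13 without such mice.

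**Figure D4:**
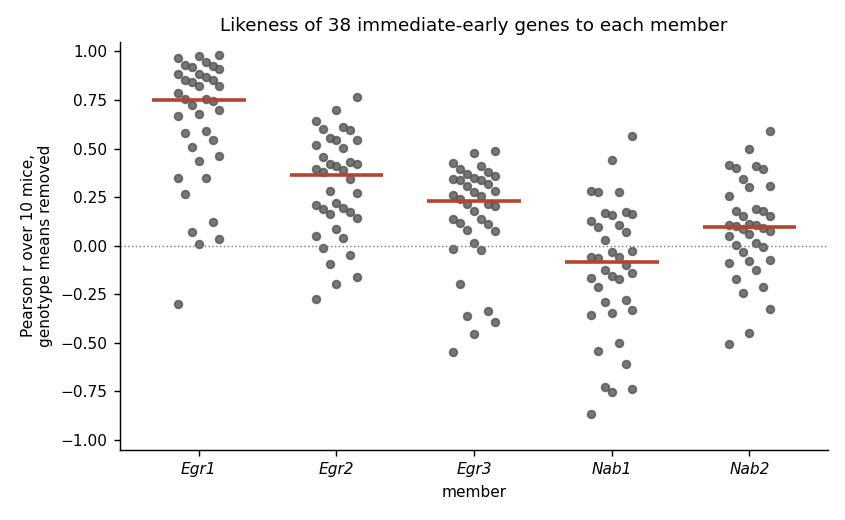
Pearson r over 10 mice, after removal of the genotype means, of each of 38 immediate-early genes (points) with each member, and their median (red line). Most points lie high for Egr1, with a median of 0.75, and spread around 0 for Nab1 and Nab2.

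The genes most like Nab2 within genotypes were Itga9, an integrin chain (r = 0.976, rho = 0.927), and Sema3g, a semaphorin (r = 0.965, rho = 0.915), with 0.965 and 0.946 when knock-out mouse 1 and wild-type mouse 4 were left out. Itga9 was also higher in knock-out muscle (0.87, SE 0.098, limma adjusted p = 5.68e-05), whereas Sema3g was lower (-0.50, adjusted p = 0.0164). For Nab1 the gene most alike was Asah1, a lysosomal ceramidase (r = 0.982, rho = 0.952, 0.934 without wild-type mouse 4 and knock-out mouse 5), for Egr2 it was Ggnbp2 (r = 0.964, rho = 0.915, 0.905 without knock-out mouse 3 and wild-type mouse 4) and for Egr3 Gm12183 (r = 0.942, rho = 0.915, 0.903 without knock-out mice 1 and 5). None of the 5 genes most like Egr2, Egr3, Nab1 or Nab2 was on the immediate-early list.

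Upstream of the EGR genes, a list of 22 genes of the ERK, SRF and CREB inputs had 0 higher and 4 lower in knock-out muscle (1 and 7 at an unadjusted p under 0.05), with a median difference of -0.13. The 4 were Rps6ka1, an ERK-activated kinase (-1.06, SE 0.17, limma adjusted p = 9.16e-04), the p38 kinase gene Mapk14 (-0.43, adjusted p = 0.00582), Srf (-0.56, adjusted p = 0.022) and its coactivator Mrtfa (-0.59, adjusted p = 0.0489). Srf, whose protein binds the CArG box, averaged 11.26 ± 0.15 in knock-out and 11.81 ± 0.34 in wild-type muscle (SD, n = 5 each), and no knock-out mouse reached the lowest wild-type mouse. The call of Srf was lost without knock-out mouse 1 or 5 (adjusted p up to 0.0634), and that of Mrtfa without any of the knock-out mice or wild-type mouse 3 or 4 (up to 0.118). The SRF partners Elk1 (-0.38, adjusted p = 0.0624) and Elk4 (0.56, adjusted p = 0.0659) did not pass, nor did the ERK gene Mapk3 (-0.14, adjusted p = 0.582). Transcript levels of kinases do not give their activity.

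ERK signalling also raises genes that dampen it, and a list of 11 such genes was examined at the transcript level, without a measure of ERK activity. Of these 4 were higher and 0 lower (7 and 0 at an unadjusted p under 0.05), with a median difference of 0.40. The phosphatase genes Dusp4 (1.13, limma adjusted p = 1.14e-04) and Dusp5 (0.91, adjusted p = 0.00133) rose with all knock-out values above all wild-type values, and Spry2 (0.40, adjusted p = 0.0313) and Errfi1 (0.44, adjusted p = 0.0438) passed with overlapping genotypes. The call of Spry2 was lost without knock-out mouse 2, 3, 4 or 5 or wild-type mouse 2 or 5 (adjusted p up to 0.0879), and that of Errfi1 without any mouse except wild-type mouse 1 (up to 0.102). The mean of the 11 genes was 7.93 to 8.05 in knock-out and 7.47 to 7.69 in wild-type mice, without overlap. Unlike for Egr1, wild-type mouse 1, at 7.69, stayed below every knock-out mouse.

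Downstream, 26 of 30 genes reported as EGR targets were tested, and 8 were higher and 1 lower, with a median difference of 0.16. Cdkn1a, which encodes the cell cycle inhibitor p21, rose by 1.48 (SE 0.11, limma adjusted p = 1.46e-06) and the hyaluronan receptor gene Cd44 by 1.11 (adjusted p = 4.79e-04). The growth factor genes Tgfb2 (0.58, adjusted p = 0.00488) and Pdgfb (0.50, adjusted p = 0.0196) were higher, and the VEGF receptor gene Flt1 was the 1 lower target (-0.59, adjusted p = 0.00133). The tendon genes Tnmd (1.51, adjusted p = 8.22e-04) and Scx (0.77, adjusted p = 0.00541) and the collagen genes Col1a1 and Col1a2 were higher too, and these 4 are also fibroblast and tendon markers. Pdgfb was not called without knock-out mouse 2 or 4 (adjusted p up to 0.0602), and Col1a1 was not called without any 1 of 7 mice, all but knock-out mouse 3 and wild-type mice 3 and 5 (up to 0.116). The Schwann cell targets Mbp, Pmp22 and Prx had 0 of 3 called at an adjusted or an unadjusted p under 0.05 (limma). Without the genes shared with either marker list, 4 of 18 were higher and 1 lower, with a median of 0.16.

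Of 12 fibroblast and tendon markers 8 were higher and 0 lower (also 8 and 0 at an unadjusted p under 0.05). Among these 8 are the 4 that are also on the target list (Tnmd, Scx, Col1a1 and Col1a2), and of the other 8 markers 4 were higher and 0 lower, with a median difference of 0.49. None of the 12 was at 0, and their summed level (2 to the power of the rlog value) was 22341 to 32445 in knock-out and 14656 to 26521 in wild-type mice. Endothelial markers moved with Flt1, with 5 of 10 lower and 0 higher (6 and 0 at an unadjusted p under 0.05), none at 0, and summed levels of 4993 to 6391 in knock-out and 6313 to 7920.1 in wild-type mice. The part of these cells in the differences of the members, of Flt1 and of the tendon targets was not tested.

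Schwann cells are the known source of Egr2 in nerve. Of 14 tested Schwann cell markers of 15, 2 were higher (Erbb3, a neuregulin receptor, at 0.74, adjusted p = 0.0135, and Cnp at 0.31, adjusted p = 0.0479) and 1 lower (L1cam, -0.43, adjusted p = 0.0474). Their summed level was 3136 to 3959 in knock-out and 2416 to 3833 in wild-type mice, none was at 0, and the defining marker Sox10 (-0.13, adjusted p = 0.606) did not pass. Cnp was not called without any 1 of the mice except wild-type mouse 3 (adjusted p up to 0.123), nor L1cam without any of 7 mice, all but knock-out mouse 1 and wild-type mice 3 and 4 (up to 0.126). The part of these cells in the Egr2 difference was not tested. For Egr3, 10 of 14 muscle spindle genes were tested, with 2 higher (Erbb3, and Etv5, an ETS factor, 0.37, adjusted p = 0.0309) and 0 lower (6 and 0 at an unadjusted p under 0.05) and a median difference of 0.39. The summed level of the spindle genes was 1075 to 1293 in knock-out and 836 to 960.0 in wild-type mice, without overlap, and its part in Egr3 was not tested. Etv5 (8.70 in knock-out muscle) and Erbb3 (7.88), which is also a Schwann cell marker, had the highest levels of the list and weigh most in this sum. A positive difference was found in 9 of the 10. Myh6 (0.36, limma adjusted p = 0.345), Myh7b (0.13, adjusted p = 0.689) and Ntf3 (-0.10, adjusted p = 0.649) did not pass. Etv5 was not called without any 1 of 7 mice, all but knock-out mouse 4 and wild-type mice 3 and 4 (adjusted p up to 0.0825).

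Of the other cell types, macrophage and leukocyte markers had 0 of 12 called (limma, also 0 at an unadjusted p under 0.05), with summed levels of 2774 to 3896 in knock-out and 2831 to 3636 in wild-type mice. Skeletal muscle markers had 2 higher and 3 lower of 14 (3 and 5 at an unadjusted p under 0.05, limma). Of the 14, 3 had a positive difference, and the median was -0.39. Their summed level was 5.14e+06 to 5.88e+06 in knock-out and 6.00e+06 to 1.18e+07 in wild-type mice, without overlap, and its part in the differences of the members was not tested. Smooth muscle and pericyte markers had 1 higher and 0 lower of 8 (1 and 1 unadjusted). The 1 higher, Cspg4, was the only 1 of the 8 with a positive difference, and the median was -0.26. Satellite cell markers had 2 higher and 1 lower of 7, and blood markers 0 higher and 2 lower of 5 (0 and 4 unadjusted). Over all marker lists together, 27 calls fell to 16 without knock-out mouse 4 and to 17 without knock-out mouse 5.

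NAB proteins act with the NuRD complex. Of 13 genes of that complex, 0 were higher and 1, Mta1, was lower (-0.61, limma adjusted p = 0.0199), against 1 and 3 at an unadjusted p under 0.05, and Mta1 was not called without knock-out mouse 1 or 2 (adjusted p up to 0.058). Of the 13, 3 had a positive difference, and the median was -0.07. The mean of the 13 genes was 9.94 to 10.05 in knock-out and 10.06 to 10.20 in wild-type mice, without overlap. Their summed levels, 19479 to 21549 in knock-out and 20551 to 24538 in wild-type mice, overlapped. Chd4, the remodeller that NAB2 binds, had 11.36 ± 0.13 and 11.37 ± 0.10 (SD, n = 5 each, adjusted p = 0.942), and the deacetylase genes Hdac1 (-0.01, adjusted p = 0.968) and Hdac2 (0.04, adjusted p = 0.807) did not pass either. Over the lists of inputs, feedback, NuRD and spindle genes together, 11 calls fell to 6 without knock-out mouse 1 or 5 and to 7 without knock-out mouse 2.

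**Figure D5:**
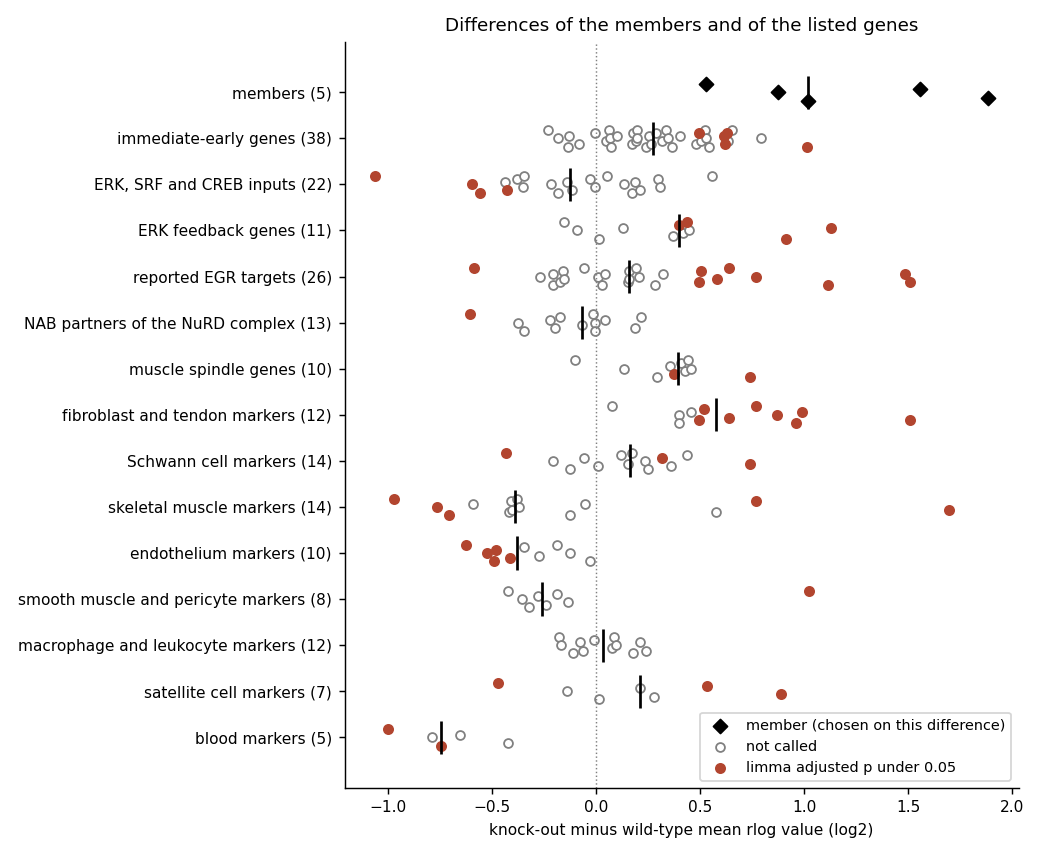
Knock-out minus wild-type mean rlog value (log2) of each tested gene of a list, with the number of genes in brackets. Black diamonds are the members, which were chosen on this difference, red points passed an adjusted p of 0.05 (limma), open points did not, and vertical lines are medians. Points of the members and of the immediate-early, feedback, target, spindle, tendon, Schwann and satellite cell lists lie mostly right of 0. Those of the input, NuRD, skeletal muscle, endothelium, smooth muscle and blood lists lie mostly left of 0, and the macrophage list straddles 0.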

How the data were processed

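RNA-seq of 5 desmin knock-out and 5 wild-type gastrocnemius muscles was analysed from 1 table. The authors deposited rlog values of DESeq2, which are on a log2 scale, and their processing notes name cutadapt 2.5, STAR 2.5.4a, Subread 1.6.1 with featureCounts, DESeq2 and GRCm38. Counts were not used here, so depth and counting error are unknown. Gene symbols and positions came from GENCODE M21. Genes averaging log2(10) or more over the mice, 14289 in all, entered a two-sided fit in limma 3.58.1 under R 4.3.3 (prior variance following the mean, Benjamini-Hochberg adjustment over all tested genes), after a test on simulated data. No label says that the mice were prepared separately, so p-values measure the spread between these samples. The members and lists were chosen with earlier results of these data known. Named were the members, Egr4, Des, genes overlapping a member, up to 8 called immediate-early genes, 6 targets and 4 genes of each other list by adjusted p, fixed inputs and partners, the leading marker of each cell type, and the 5 genes most like each member. Not every gene of this rule is reported here. Pdgfb, Col1a1, Mbp, Prx, Sox10, Myh6, Myh7b, Ntf3 and the genes called without wild-type mouse 1 were named outside this rule, after their values were seen. Alternatives were no expression limit, log2(50) as the limit, quantile normalization, median centring, 1 prior variance, sample weights, a replicate block, each mouse left out, an adjusted p under 0.01, and for likeness Spearman's rho or 2 mice fewer. Promoter windows came from RefSeq (GRCm38.p6).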

Additional observations from a re-analysis of the deposited data

Results flagged for a closer look

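Of 180 groups of 5 values looked at (each named gene in each genotype), 14 held a mouse whose gap to the nearest other mouse passed Dixon's critical value for 5 values, where chance gives about 1 in 20, or 9. Among the members this was Egr2 in knock-out mouse 3, at 6.06 against 5.41 to 5.55 in the other knock-out mice, and the same mouse stood apart for Col1a2 (11.33) and for Atg4a-ps (3.87), 1 of the genes most like Egr2. Of the genes that overlap Nab2, Stat6 was flagged in knock-out mouse 1 (10.20) and Gm16229 in wild-type mouse 2 (-0.73). Spry2 was low in knock-out mouse 1 (7.86). The other 8 were all in wild-type mouse 3, with Des at 17.74, Tnnt1 at 12.43, Actn3 at 19.34, Acta1 at 21.18, Alas2 at 8.28, Hbb-bs at 12.44, Elk4 at 9.35 and Lyz2 at 9.46.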

How the results depend on the processing

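Each of the 5 members kept a positive difference under every alternative in which it was tested. The differences were 0.98 to 2.35 for Egr1, 0.81 to 1.09 for Egr2, 0.79 to 0.94 for Egr3, 0.40 to 0.62 for Nab1 and 1.51 to 1.59 for Nab2. Because the members were chosen on this contrast, these ranges and the counts past the limit are a description and carry no test. The count was 5 in each alternative except 3 with a limit of log2(50), under which Egr2 and Egr3 were not tested. It was also 3 at an adjusted p under 0.01, which Egr1 and Nab1 missed, and 4 without each of the mice named above. With sample weights 4220 genes were called in place of 1956, 8 immediate-early genes in place of 5, 14 EGR targets in place of 9 and 20 input, feedback, NuRD and spindle genes in place of 11, and 994 genes were called at an adjusted p under 0.01. At that limit, which was added for the members and lists after the values were seen, 2 immediate-early genes, 7 EGR targets, 4 input, feedback, NuRD and spindle genes and 11 cell type markers were called, the last in place of 27. When single mice were left out, the calls ranged from 5 to 11 for immediate-early genes, 6 to 13 for input, feedback, NuRD and spindle genes and 16 to 27 for cell type markers. With a replicate block 1579 genes and 8 immediate-early genes were called, but mice with the same number did not deviate together (r of -0.219 to 0.067), so they share only a number. Scaling moved the share of higher calls from 56.2% to 49.0% (942 higher, 979 lower) with median centring and to 51.0% (1090 and 1049) with quantile normalization. Of the 5 genes most like a member, Spearman's rho kept 3 for Egr1, 0 for Egr2 and 1 for each of Egr3, Nab1 and Nab2, and leaving out the 2 farthest mice kept 1, 0, 0, 0 and 2 in the order Egr1, Egr2, Egr3, Nab1, Nab2. The named calls lost most often were Cnp, in 14 of 17 alternatives, Errfi1 and Mrtfa in 12 each and Etv5 and Myh4 in 10 each. The cause of these changes was not tested. Shrinkage of the deposited values limits what Egr2 and Egr3 can show, since wild-type Egr3 lay at the expression limit.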
